A study of Mus musculus with 20 samples.

Results

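The D-type and E-type cyclins and the kinases they activate form a group of 8 genes: the cyclins Ccnd1, Ccnd2, Ccnd3, Ccne1 and Ccne2 and the kinases Cdk2, Cdk4 and Cdk6. Members were taken by symbol alone, as every probe set whose only symbol in the annotation of the array was among these 8. That gave 20 probe sets of the 45037 that are not controls, and 8 genes of the 17097 named. The 20 comprise 3 for Ccnd1, 6 for Ccnd2, 2 for Ccnd3, 1 each for Ccne1, Ccne2 and Cdk2, 3 for Cdk4 and 3 for Cdk6. Of these 20, 18 passed a filter on dim probe sets (at least 4 of the 20 arrays had to read above their own median) and were tested. The Ccnd3 probe set 1438805_PM_at and the Cdk6 probe set 1460291_PM_at did not pass and are given as values.

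D-type cyclins bind Cdk4 and Cdk6 and are induced by growth signals early in the G1 phase, and these kinases begin the phosphorylation of the retinoblastoma protein. E-type cyclins are transcribed late in G1 by E2F factors, bind Cdk2 and drive entry into S phase. Cyclin D genes are known targets of growth factor signalling and of ETS, AP-1, Myc and Wnt-dependent transcription in mesenchymal cells and sarcomas, and Cdk6 is the kinase more often seen in cells of the blood and in undifferentiated cells.

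RNA of 20 mouse samples was measured, 1 Affymetrix array each. CDS tumors (6 arrays) were CIC-DUX4 sarcomas, which arose under the skin of Balb/c nude mice from embryonic mesenchymal cells (eMC) carrying a gene that joins CIC, a repressor, to DUX4, an activator of transcription. ES tumors (6 arrays) were Ewing sarcomas of the mouse, also grown under the skin of such mice. Neither kind of tumor had been treated. The eMC CIC-DUX4 group (4 arrays) and the eMC empty group (4 arrays) were such primary mesenchymal cells in culture, taken 48 h after retroviral transduction with pMYs-CIC-DUX4-IRES-GFP or with pMYs-IRES-GFP, so that both eMC groups carried the GFP gene of the vector. Nude mice lack T cells of thymic origin but keep other host cells, which contribute RNA to a tumor sample. In bulk RNA fewer cells of a type and less RNA per cell cannot be told apart. Whether separate cultures lie behind the eMC arrays is not stated in the labels, and p-values measure only the spread between these samples.

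Signals are given as log2(signal + 1.42), a log2 signal in what follows. Arrays had nearly equal trimmed means but unequal distributions. The dip, the trough between the dim and the bright peak of an array's signals, had 31.6 ± 17.1% of probe sets above it in CDS tumors (SD, n = 6), 34.2 ± 4.77% in ES tumors (n = 6), 51.1 ± 17.8% in eMC CIC-DUX4 (n = 3) and 17.9 ± 6.91% in eMC empty (n = 4). No dip was found in eMC CIC-DUX4 6, and CDS 2, eMC CIC-DUX4 5 and eMC CIC-DUX4 6 had a median log2 signal over 5. The median log2 fold change of all 26897 tested probe sets was 1.98 in eMC CIC-DUX4 against eMC empty, 0.89 in CDS against eMC empty, 0.41 in ES against eMC empty, 0.21 in CDS against ES and -0.94 in CDS against eMC CIC-DUX4. Quantile normalization brought them to -0.01, -0.07, -0.02, -0.03 and -0.01 in the same order, and fold changes on that scale stand beside the deposited ones. With each array shifted to the same median they were 0.42, 0.18, 0.72, -0.80 and -0.09.

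The labelled tissues were set against marker genes. These were chosen with earlier results of these data known, so the outcome is a description and no independent check. All 5 CDS markers (Etv1, Etv4, Etv5, Muc5ac, Vgf) lay above the dip in every CDS array, and of the 7 ES markers only Cd99l2 and Fli1 did so in every ES array, while Dkk2 and Nr0b1 lay below it in all ES arrays. Fli1 was also above it in every CDS array, and the summed log2 signal of the 7 was 12.80 to 14.12 in CDS tumors and 9.15 to 11.42 in ES tumors, so these markers did not set the ES tumors apart. All 9 mesenchymal markers lay above the dip in 3 of 4 eMC CIC-DUX4 arrays (the fourth has none), and 4 of 9 did so in every eMC empty array. All 6 macrophage markers were above it in all ES and in the same 3 eMC CIC-DUX4 arrays, 2 of 6 in every CDS array and 1 of 6 in every eMC empty array. The dip ran from 5.32 to 8.18 in eMC empty and 2.98 to 4.29 in eMC CIC-DUX4, and these counts depend on it. Summed log2 signals of the mesenchymal markers were 16.80 to 17.64 in eMC empty and 15.74 to 16.18 in eMC CIC-DUX4. This is the reverse of their counts. Sums of the macrophage markers overlapped in all 4 groups, at 13.45 to 16.08 in CDS and 13.75 to 15.38 in ES tumors. They were 14.26 to 14.66 in eMC CIC-DUX4 and 14.42 to 14.98 in eMC empty. The mean 3′ minus 5′ log2 signal of Actb, which grows as RNA degrades, was 0.80 ± 0.36 in CDS tumors and 0.25 ± 0.05 in ES tumors (SD, n = 6 each), and 0.22 ± 0.02 in cells with CIC-DUX4 and 0.17 ± 0.03 in cells with the empty vector (n = 4 each). Skeletal muscle markers had summed log2 signals from 8.97 to 17.64 in CDS tumors and from 3.11 to 17.08 in ES tumors. Endothelial markers had sums of 12.11 to 13.06 in CDS tumors and 8.22 to 11.63 in ES tumors. The part of all these differences in the results below was not tested.

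Ccnd1 and Ccnd2, but not Ccnd3, set the CDS tumors apart from every other group. Calls rest on limma fitted over all tested probe sets, and needed a p under 0.05 after Benjamini-Hochberg adjustment with a log2 fold change of 1 or more in size. In CDS against ES, 10 of the 18 member probe sets were called higher and 2 lower, against 11.1% and 8.71% of all tested probe sets. The same 12 calls were made after quantile normalization, where 15.2% and 15.7% of all were higher and lower. Since 9 of the 10 higher ones belong to Ccnd1 or Ccnd2, the probe sets are not independent: counted with 1 row per gene, 3 genes were higher (Ccnd1, Ccnd2, Ccnd3) and 1 lower (Ccne1). No share over all genes was computed beside this count.

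Against eMC empty, CDS tumors had 11 member probe sets called higher and 1 lower, beside 13.2% and 4.89% of all tested. After quantile normalization 11 were higher and 4 lower, beside 18.2% and 19.9%. Against eMC CIC-DUX4, CDS tumors had 10 higher and 2 lower, beside 4.47% and 12.1%, and 11 and 2 after quantile normalization, beside 17.1% and 19.0%. ES tumors had 3 higher and 7 lower against eMC empty, beside 25.8% and 9.77%, and 2 and 9 after quantile normalization, beside 18.0% and 19.0%. Calls made in the same direction on both scales numbered 11, 12 and 9 in these 3 comparisons. The share of all tested probe sets with such calls was not computed, so these numbers are a description. The eMC CIC-DUX4 cells had 5 higher and 3 lower against eMC empty, beside 43.4% and 4.18% of all tested, so the share of higher calls was below that of all probe sets. After quantile normalization 0 were higher and 2 lower, beside 7.43% and 6.11%, and 0 of the 8 calls were made in the same direction on both scales: Ccne1 was called on each, higher as deposited and lower after quantile normalization. The comparisons share the CDS, ES or eMC empty arrays and are not independent of each other.

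**Figure D1:**
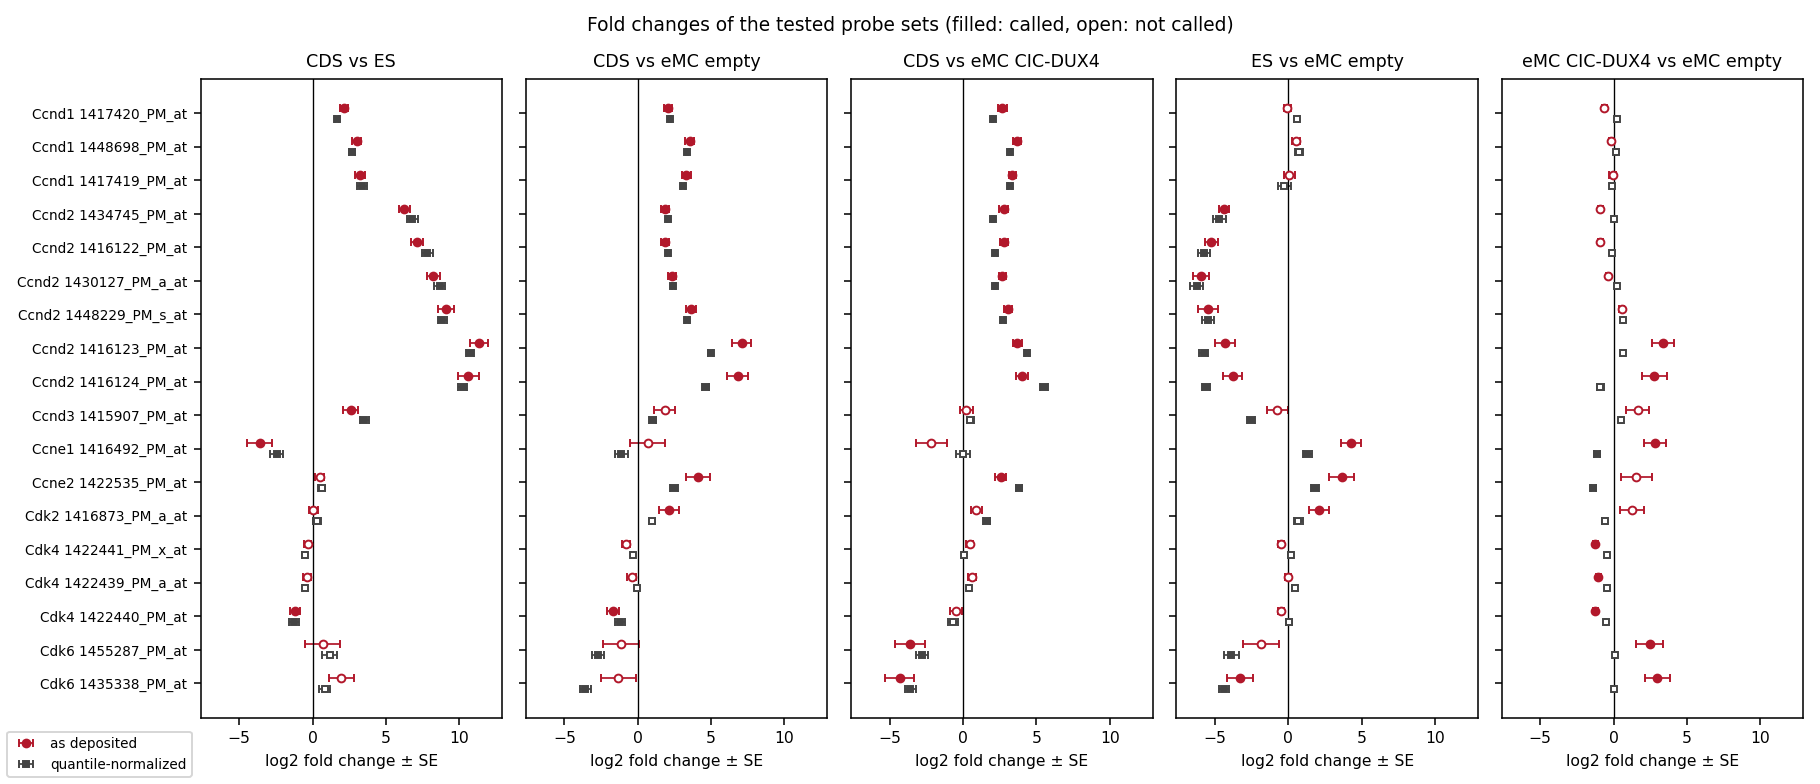
Log2 fold change ± SE (horizontal axis) of the 18 tested probe sets (rows) in 5 comparisons (panels), red circles as deposited and grey squares after quantile normalization, filled where called. The Ccnd1 and Ccnd2 probe sets lie right of 0 in the 3 panels that set CDS against another group, and the panel of eMC CIC-DUX4 against eMC empty has 1 probe set filled on both scales, Ccne1, on opposite sides of 0.

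Ccnd2, the cyclin D with the widest range across the groups, was high in CDS tumors and low in ES tumors. Its probe set of the highest mean, 1434745_PM_at, had log2 signals from 14.64 to 16.74 (median 15.58) in CDS tumors and from 8.35 to 10.25 (median 9.20) in ES tumors. It read 12.79, 12.56, 13.03 and 13.04 in eMC CIC-DUX4, against 13.86, 14.07, 13.65 and 13.41 in eMC empty. Every CDS array was above every array of the other groups, every ES array was below them, and the 4 groups did not overlap. The log2 fold change in CDS against ES was 6.26 ± 0.36 (SE), a 76.6-fold difference, at an adjusted p of 3.41e-10, and 6.80 ± 0.36 after quantile normalization.

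Against the cultured cells the same probe set moved in opposite directions in the 2 kinds of tumor. In CDS tumors it was 1.88 ± 0.28 higher than in eMC empty (log2, adjusted p 7.52e-05; quantile 2.09), which is 0.99 above the median of all probe sets, and 2.77 ± 0.29 higher than in eMC CIC-DUX4 (adjusted p 1.33e-05; quantile 2.06). In ES tumors it fell by 4.38 ± 0.37 against eMC empty (adjusted p 3e-06), a 20.9-fold difference, and the quantile fold change was -4.71. In eMC CIC-DUX4 against eMC empty it was -0.89 ± 0.17 (adjusted p 0.00142), under the minimum fold, and 0.02 after quantile normalization.

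The other Ccnd2 probe sets gave the same order of the tumors with a wide range of sizes. In CDS against ES all 6 were called higher, with log2 fold changes from 6.26 to 11.38 as deposited and from 6.80 to 10.76 after quantile normalization. The largest came from 1416123_PM_at, which averaged 13.66 ± 0.61 in CDS tumors and 2.29 ± 0.31 in ES tumors (SD, n = 6 each). All 6 ES arrays lay below the dip for 1416123_PM_at and for 1416124_PM_at, so that those folds are bounds. Taking for each ES array the higher of its dip and its signal, CDS tumors had Ccnd2 signals at least 430-fold higher by 1416123_PM_at and at least 200-fold higher by 1416124_PM_at. With 3 of 6 ES arrays above the dip, 1448229_PM_s_at gave 9.10 ± 0.54, and with 5 of 6, 1430127_PM_a_at gave 8.24 ± 0.46. Thus the spread of the fold among probe sets of 1 gene was larger than the standard error of any of them, and the probe sets with the larger folds were those with ES signals in the dim part of the array.

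Probe sets of Ccnd2 disagreed on the culture comparison. The probe set 1416123_PM_at read 10.05, 9.89, 10.02 and 9.90 in the cells with CIC-DUX4, against 5.03, 5.49, 6.99 and 8.84 in eMC empty, a log2 fold change of 3.38 ± 0.75 (adjusted p 0.00394). A second, 1416124_PM_at, read 9.07, 8.93, 8.41 and 7.68 with CIC-DUX4, against 4.79, 4.89, 4.73 and 8.58 in eMC empty, or 2.77 ± 0.86 (adjusted p 0.0209). Both were called higher, while the remaining 4 ranged from -0.92 to 0.54 and were not called. Only 2 and 1 of the 4 eMC empty arrays, in the order of these probe sets, were above the dip, and after quantile normalization the fold changes were 0.63 and -0.90, neither called. The call of 1416124_PM_at was lost without any of eMC CIC-DUX4 5 (2.59, adjusted p 0.0521), eMC CIC-DUX4 6 (2.64, 0.0697), eMC empty 4 (2.45, 0.0586), eMC empty 5 (2.49, 0.0539) or eMC empty 6 (2.44, 0.0537). Without eMC empty 7, which had the largest share of probe sets above the dip in its group, 1434745_PM_at (adjusted p 0.000703) and 1416122_PM_at (-1.01, adjusted p 0.000864) passed the minimum fold as lower.

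In the other comparisons the 6 Ccnd2 probe sets were called in the same direction. Log2 fold changes in CDS against eMC empty ran from 1.88 to 7.08 (quantile 2.08 to 4.98) and in CDS against eMC CIC-DUX4 from 2.69 to 4.04 (quantile 2.06 to 5.52). In ES against eMC empty they ran from -3.80 to -5.93 (quantile -4.71 to -6.24). With ES arrays set to their dip, 1416123_PM_at was 3.18-fold and 1416124_PM_at 1.78-fold lower in ES tumors. Only 2 and 1 of the 4 eMC empty arrays, in that order, were above the dip. These 2 values thus rest partly on dim eMC empty signals and are not firm minimum folds.

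Ccnd1, the cyclin D most often induced by growth factor signalling in mesenchymal cells, was also highest in CDS tumors, but was not low in ES tumors. Its probe set of the highest mean, 1417420_PM_at, ran from 14.46 to 16.67 (median 15.43) in CDS tumors and from 12.72 to 13.84 (median 13.24) in ES tumors. Its signals were 12.69, 12.54, 12.87 and 12.90 in eMC CIC-DUX4, against 13.58, 13.60, 13.28 and 13.04 in eMC empty. The CDS arrays lay above all others, and the ES arrays overlapped both eMC groups.

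All 3 Ccnd1 probe sets rose in CDS tumors against each other group. Against ES the log2 fold changes were 2.14 ± 0.28 (adjusted p 2.69e-05), 3.02 ± 0.30 (7.12e-07) and 3.23 ± 0.32 (5.63e-07) for 1417420_PM_at, 1448698_PM_at and 1417419_PM_at, and 1.66, 2.67 and 3.36 after quantile normalization. Against eMC empty they were 2.06, 3.55 and 3.31 (quantile 2.23, 3.38 and 3.09), and against eMC CIC-DUX4 2.69, 3.69 and 3.36 (quantile 2.01, 3.19 and 3.21). The smallest fold came from 1417420_PM_at in all 3 comparisons as deposited. With each array shifted to the same median, that probe set lost its call in all 3: 1.12 against ES (adjusted p 0.12), 1.36 against eMC empty (0.172) and 3.54 against eMC CIC-DUX4 (0.0801). In ES against eMC empty none of the 3 was called, with values of -0.07, 0.53 and 0.07 (95% intervals -0.57 to 0.43, -0.05 to 1.12 and -0.74 to 0.88). The eMC CIC-DUX4 cells gave -0.63, -0.14 and -0.06 against eMC empty (adjusted p 0.00665, 0.448 and 0.827), and none was called, 1417420_PM_at because it missed the minimum fold. On the quantile scale these 3 were 0.22, 0.19 and -0.12 (adjusted p 8.8e-05, 0.00246 and 0.423), all under the minimum fold. For 1417420_PM_at the groups did not overlap on either scale, with opposite signs. Relative to all probe sets the deposited values were -2.60, -2.12 and -2.03.

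**Figure D2:**
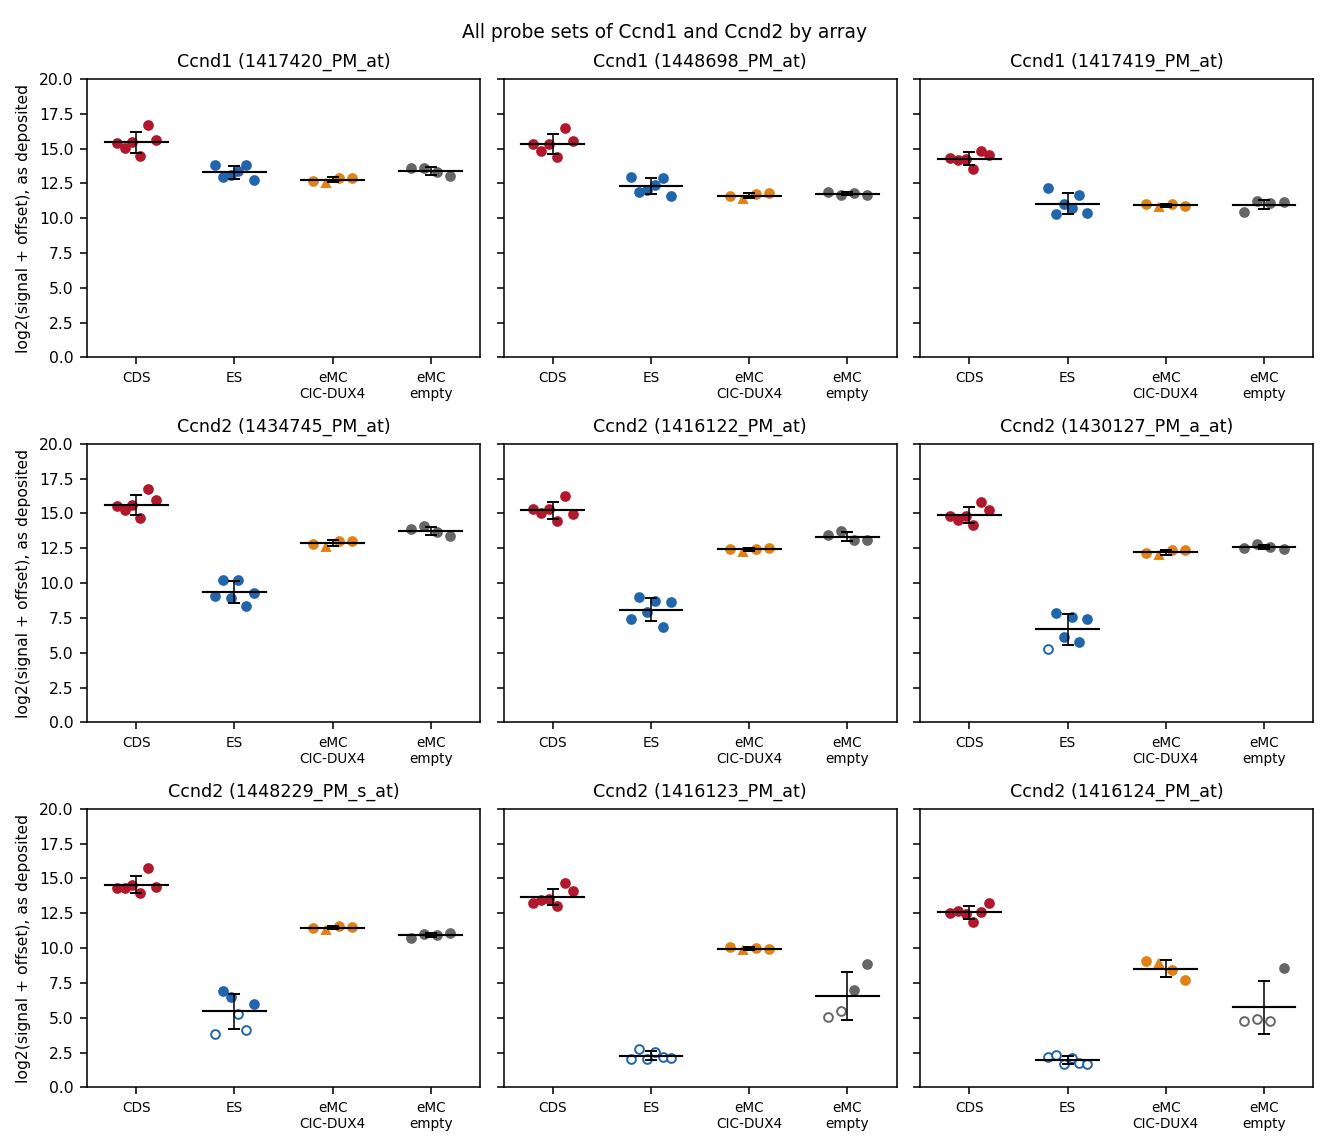
Log2 signal (vertical axis) of each of the 3 Ccnd1 and 6 Ccnd2 probe sets in each array by group, with mean and SD (bars), open circles for signals below the dip and a triangle for eMC CIC-DUX4 6, which had no dip. CDS points lie above the others in all 9 panels, and ES points fall below the dip in all 6 arrays for 1416123_PM_at and 1416124_PM_at.

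Ccnd3, a cyclin D with a known part in lymphoid and muscle cells, was called only between the tumors on the deposited scale. The tested probe set, 1415907_PM_at, ran from 9.47 to 12.19 (median 10.97) in CDS tumors and from 7.26 to 9.25 (median 8.34) in ES tumors. It was 10.61, 10.46, 10.83 and 10.83 in eMC CIC-DUX4, against 9.37, 6.41, 10.13 and 10.28 in eMC empty. The tumors did not overlap, and eMC empty 5 stood below the rest of its group and below its dip. Ccnd3 rose by 2.61 ± 0.51 (log2, adjusted p 0.00139) in CDS tumors against ES tumors, a 6.10-fold difference, and by 3.55 after quantile normalization. The call was lost with each array shifted to the same median (1.59, adjusted p 0.12).

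In the other comparisons Ccnd3 was not called as deposited, and 2 of them depended on single arrays. CDS against eMC empty gave 1.85 ± 0.71 (adjusted p 0.073; quantile 1.02, called), and 2.14 without CDS 5 (adjusted p 0.0313) or 2.27 without eMC empty 7 (0.0344). ES against eMC empty gave -0.75 ± 0.73 (adjusted p 0.406; quantile -2.53, called), and -1.63 without eMC empty 5 (adjusted p 0.0241). CDS against eMC CIC-DUX4 gave 0.22 ± 0.45 and eMC CIC-DUX4 against eMC empty 1.64 ± 0.76. With all 4 groups in 1 fit, Ccnd3 was called higher in CDS tumors (adjusted p 0.031) and in eMC CIC-DUX4 (0.0494), both against eMC empty. The Ccnd3 probe set that was not tested, 1438805_PM_at, had signals from 2.35 to 5.04 in CDS tumors, from 1.97 to 2.87 in ES tumors, from 1.47 to 6.06 in eMC CIC-DUX4 and from 1.94 to 2.49 in eMC empty, and among the arrays with a dip lay above it in CDS 2 only.

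Ccne1 and Ccne2, whose proteins activate Cdk2 at the entry into S phase, differed between the tumors in unlike ways. Ccne1 (1416492_PM_at) was 6.54, 8.82, 3.58, 8.50, 4.96 and 4.93 in CDS tumors 1 to 6, and ran from 8.94 to 10.29 (median 9.91) in ES tumors. It read 8.80, 8.65, 8.16 and 7.92 in eMC CIC-DUX4, against 4.78, 5.16, 4.31 and 7.95 in eMC empty. All ES arrays were above all arrays of the other groups, and CDS arrays were spread over more than 5 log2 units, with CDS 3, 5 and 6 below the dip.

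Ccne1 fell by 3.59 ± 0.86 in CDS tumors against ES tumors (log2, adjusted p 0.00636), a 12.0-fold difference, and the quantile fold change was -2.44 (adjusted p 0.000554). In ES tumors it rose by 4.26 ± 0.68 against eMC empty (adjusted p 0.000336), with 1.31 after quantile normalization, also called. Against eMC empty, CDS tumors gave 0.67 ± 1.22 (adjusted p 0.684) as deposited and -1.13 on the quantile scale, where it was called lower. In eMC CIC-DUX4 against eMC empty the sign of Ccne1 turned with the scaling: it was called higher as deposited (2.84 ± 0.75, adjusted p 0.00967) and lower after quantile normalization (-1.13, adjusted p 0.000223), with 3 of 4 eMC empty arrays below the dip. CDS against eMC CIC-DUX4 gave -2.16 ± 1.04 (adjusted p 0.156), and -2.68 without CDS 2 (adjusted p 0.0465).

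Ccne2 (1422535_PM_at) was high in both kinds of tumor. It ran from 11.10 to 12.07 (median 11.41) in CDS tumors and from 10.71 to 11.64 (median 11.11) in ES tumors. It was 9.17, 9.19, 8.91 and 8.74 in eMC CIC-DUX4, against 5.12, 5.49, 9.41 and 9.79 in eMC empty. The tumors overlapped each other and lay above every eMC array, and eMC empty 4 and 5 were below the dip.

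Against eMC empty, Ccne2 rose by 4.12 ± 0.81 in CDS tumors (log2, adjusted p 0.00114; quantile 2.47) and by 3.63 ± 0.84 in ES tumors (adjusted p 0.00401; quantile 1.84). Against eMC CIC-DUX4, CDS tumors were 2.57 ± 0.38 higher (adjusted p 0.000321; quantile 3.84). Between CDS and ES the difference was 0.48 ± 0.30 (adjusted p 0.243), with a 95% interval of -0.15 to 1.11. In eMC CIC-DUX4 against eMC empty Ccne2 was 1.55 ± 1.04 (adjusted p 0.23) as deposited and -1.37 on the quantile scale, where it was called lower, so its sign there turned with the scaling as that of Ccne1 did.

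**Figure D3:**
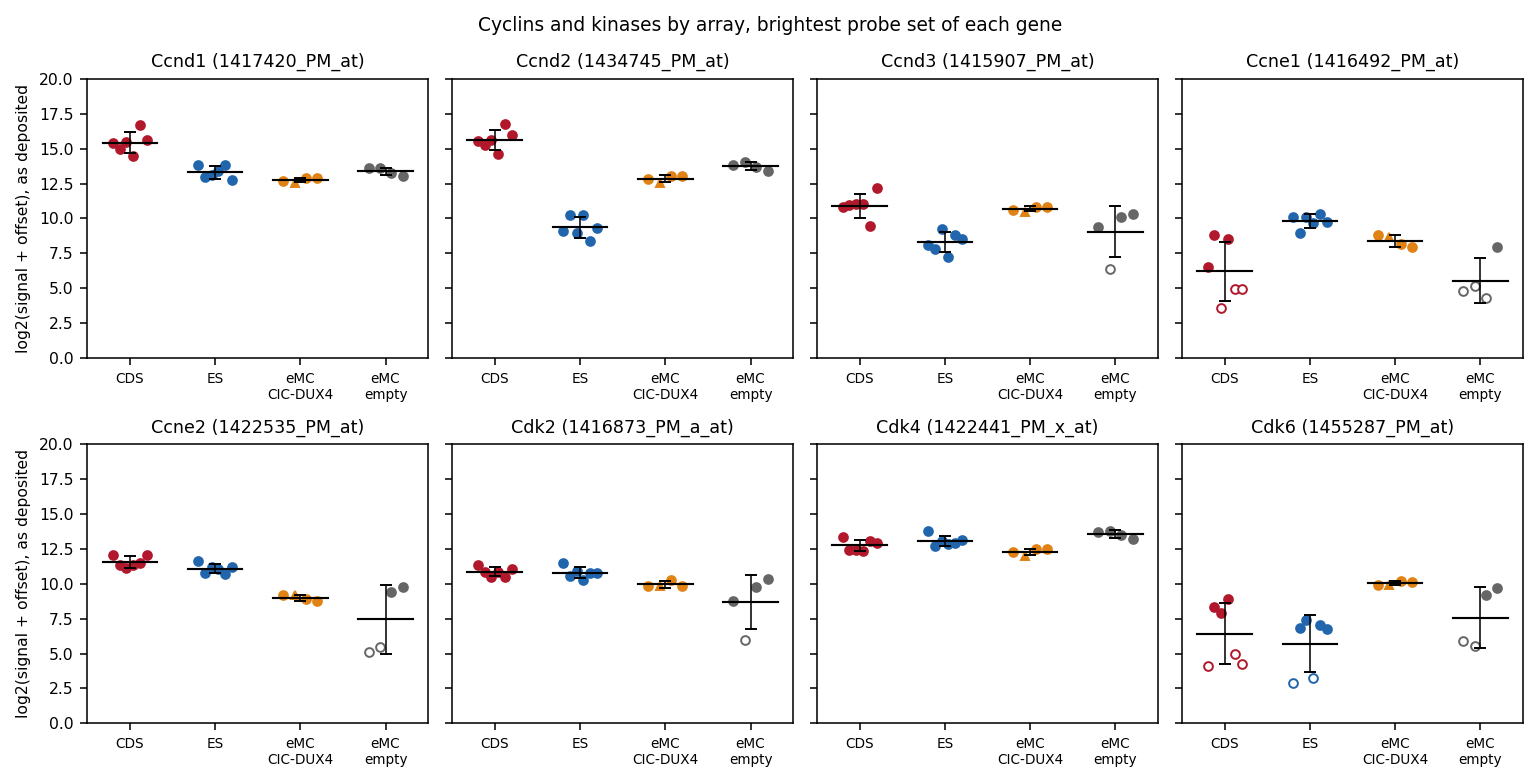
Log2 signal (vertical axis) of the probe set of the highest mean of each gene in each array, by group, with mean and SD (bars), open circles for signals below the dip and a triangle for eMC CIC-DUX4 6. Ccnd1 and Ccnd2 are highest in CDS, Ccne1 in ES, Ccne2 in both tumors, and Cdk6 in eMC CIC-DUX4.

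Cdk2, the kinase of the E cyclins, differed little between the tumors. Its probe set 1416873_PM_a_at ran from 10.48 to 11.32 (median 10.86) in CDS tumors and from 10.27 to 11.46 (median 10.77) in ES tumors. It was 9.86, 9.81, 10.28 and 9.86 in eMC CIC-DUX4, against 8.74, 5.97, 9.77 and 10.35 in eMC empty. CDS and ES overlapped over most of their range, and the difference was 0.06 ± 0.33 (log2, 95% interval -0.63 to 0.74).

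Against eMC empty, Cdk2 was called higher in CDS tumors (2.14 ± 0.70, adjusted p 0.0376) and in ES tumors (2.09 ± 0.68, adjusted p 0.0247), and on the quantile scale it was 0.99 and 0.69 and not called in either. The call in CDS tumors was lost without 7 of the 10 arrays left out in turn. Without eMC empty 5, the array below the dip, the value was 1.23 (adjusted p 0.159), and without eMC empty 4 it was 2.16 (0.082). Without CDS 1, 2, 3, 4 or 6 the log2 fold change was 2.05, 2.15, 2.22, 2.14 or 2.10 (adjusted p 0.0655, 0.0687, 0.052, 0.0639 or 0.0618). It was also lost with no filter on dim probe sets (adjusted p 0.0729), with eBayes without a trend (0.0766) and with arrays shifted to the same median (1.43, 0.397). In ES tumors the call was lost without eMC empty 4 (2.10, adjusted p 0.0511). In CDS against eMC CIC-DUX4 Cdk2 was 0.90 ± 0.38 (adjusted p 0.107; quantile 1.60, called), and the groups did not overlap. In eMC CIC-DUX4 against eMC empty Cdk2 was 1.24 ± 0.82 (adjusted p 0.223) as deposited and -0.61 (adjusted p 0.00319) after quantile normalization. Its sign turned with the scaling there, and it was called on neither scale.

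Cdk4, a kinase of the D cyclins, was lower in eMC CIC-DUX4 than in eMC empty as deposited. The probe set 1422441_PM_x_at ran from 12.36 to 13.32 (median 12.69) in CDS tumors and from 12.72 to 13.76 (median 13.01) in ES tumors. It read 12.28, 12.02, 12.46 and 12.47 in eMC CIC-DUX4, against 13.73, 13.80, 13.49 and 13.22 in eMC empty. Each eMC CIC-DUX4 array was below each ES and each eMC empty array, and the CDS tumors overlapped all other groups. By the naming of the manufacturer, an x marks a probe set with probes that may also match other transcripts, and it is uncertain to that extent.

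All 3 Cdk4 probe sets were called lower as deposited in eMC CIC-DUX4 against eMC empty, at -1.25 ± 0.16 (adjusted p 0.000149), -1.04 ± 0.15 (0.000291) and -1.24 ± 0.19 (0.000366) in the order 1422441_PM_x_at, 1422439_PM_a_at and 1422440_PM_at. After quantile normalization the values were -0.44, -0.46 and -0.54 (adjusted p 6.76e-07, 2.57e-05 and 7.33e-07), in the same direction and under the minimum fold, and the groups did not overlap on either scale. The call of 1422439_PM_a_at was lost without eMC CIC-DUX4 6 (-0.96) or eMC empty 5 (-0.96), since the value then missed the minimum fold.

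In the tumors the Cdk4 probe sets disagreed. The probe set 1422440_PM_at was 12.64, 11.71, 11.55, 11.78, 10.70 and 10.42 in CDS tumors 1 to 6, from 12.22 to 13.44 (median 12.63) in ES tumors, and 13.39, 13.48, 13.05 and 12.79 in eMC empty. It was called lower in CDS tumors against ES (-1.21 ± 0.34, adjusted p 0.0178; quantile -1.26) and against eMC empty (-1.71 ± 0.41, adjusted p 0.00583; quantile -1.21). For 1422441_PM_x_at and 1422439_PM_a_at the same comparisons gave -0.32 and -0.38 against ES and -0.81 and -0.42 against eMC empty, not called. CDS 5 and CDS 6, lowest for 1422440_PM_at and not for the others, had the largest 3′ minus 5′ signals of Actb in the series (1.16 and 1.28), and the part of this in the disagreement was not tested.

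RefSeq's promoter table (GRCm38.p6) held 6 promoters of 300 bases for 5 members, Ccnd3, Ccne1, Cdk2, Cdk4 and Cdk6. The promoter of Cdk4 is shown because it holds repeated copies of the E-box CACGTG, the palindrome that Myc with Max is known to bind, and Myc family genes are among the inducers measured below. These are the 250 bases before the start of the gene, chr10:127063285-127063534 (+), 5′ to 3′, with each CACGTG in capitals.
Cdk4: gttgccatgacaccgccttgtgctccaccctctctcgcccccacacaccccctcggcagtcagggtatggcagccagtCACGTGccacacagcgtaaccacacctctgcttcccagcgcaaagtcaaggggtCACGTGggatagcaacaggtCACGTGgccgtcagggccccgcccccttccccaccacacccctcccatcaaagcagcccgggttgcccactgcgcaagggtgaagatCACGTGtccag

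The 4 copies began 172, 118, 98 and 11 bases before the start. Of all 32851 promoters of this length, 7.15% held at least 1 CACGTG and 0.0244% held 4 or more. Among the other members with a promoter in the table, Cdk6 held 1. The CIC octamers TGAATGAA, TGAATGGA, TCAATGAA and TCAATGGA, sought on both strands, were in 0 of the 6 promoters and in 3.84% of all. The E2F octamers TTTCCCGC, TTTGGCGC, TTTCGCGC and TTTGCCGC were in Cdk2 (1 match) and in 2.26% of all. CCGGAAGT, the ETS core, and TGACTCA, the AP-1 site, were in 0 of the 6, and in 3.89% and 5.2% of all. These matches describe letters within this window and say nothing of binding.

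Cdk6, the other kinase of the D cyclins, had its highest group mean in eMC CIC-DUX4 and varied widely within the other groups. The probe set 1455287_PM_at was 4.12, 8.34, 7.90, 8.90, 4.99 and 4.25 in CDS tumors 1 to 6, and from 2.92 to 7.39 (median 6.81) in ES tumors. It read 9.89, 9.93, 10.17 and 10.14 in eMC CIC-DUX4, against 5.87, 5.54, 9.22 and 9.68 in eMC empty. Each eMC CIC-DUX4 array was above every array of the other groups, and 3 of 6 CDS, 2 of 6 ES and 2 of 4 eMC empty arrays were below the dip.

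The second tested probe set, 1435338_PM_at, was 3.70, 7.35, 4.22, 7.73, 4.33 and 3.95 in CDS tumors 1 to 6 and from 2.49 to 4.61 (median 3.04) in ES tumors. It was 9.69, 9.58, 9.51 and 9.34 in eMC CIC-DUX4, against 4.98, 5.32, 6.52 and 9.35 in eMC empty. CDS 2 and CDS 4 were the highest CDS tumors by both probe sets, and CDS and ES overlapped by both. The eMC CIC-DUX4 and eMC empty arrays overlapped here, since eMC empty 7 was above eMC CIC-DUX4 8, and ES had the lowest median, where CDS had it for 1455287_PM_at. The probe set that was not tested, 1460291_PM_at, lay from 2.00 to 4.70 in CDS tumors, from 1.90 to 2.42 in ES tumors, from 2.17 to 7.00 in eMC CIC-DUX4 and from 2.51 to 3.13 in eMC empty.

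Cdk6 fell in CDS tumors against eMC CIC-DUX4 by both tested probe sets. The log2 fold changes were -3.61 ± 1.00 (adjusted p 0.0224; quantile -2.79) and -4.32 ± 0.97 (adjusted p 0.00691; quantile -3.59), in the order given above, with no overlap, and 3 and 2 of 6 CDS arrays were above the dip. For 1455287_PM_at the call was lost without eMC CIC-DUX4 5, 6, 7 or 8 (-3.66, -3.65, -3.57 or -3.58, adjusted p 0.0651, 0.0678, 0.0654 or 0.0551). In ES tumors against eMC empty, 1435338_PM_at, above the dip in 1 of 6 ES and 2 of 4 eMC empty arrays, fell by 3.28 ± 0.87 (adjusted p 0.00862; quantile -4.40) and 1455287_PM_at gave -1.87 ± 1.23 (adjusted p 0.224; quantile -3.88, called). Between CDS and ES the values were 0.70 ± 1.19 and 1.96 ± 0.84, neither called.

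With CIC-DUX4 against the empty vector, Cdk6 was called higher as deposited (2.45 ± 0.92, adjusted p 0.0463, and 2.99 ± 0.85, adjusted p 0.0145), and the quantile values were 0.10 and 0.02, not called. Relative to the median of all probe sets the deposited values were 0.48 and 1.01. The call of 1455287_PM_at was also lost with no filter on dim probe sets (adjusted p 0.051), with eBayes without a trend (0.0741) and with all 4 groups in 1 fit (0.0957). It was lost without any of 6 arrays: 2.50, 2.49, 2.41 and 2.42 without eMC CIC-DUX4 5, 6, 7 or 8 (adjusted p 0.0807, 0.104, 0.0854 and 0.0794), and 1.88 and 1.77 without eMC empty 4 or 5 (0.118 and 0.103). CDS against eMC empty gave -1.16 ± 1.23 and -1.33 ± 1.20, not called, and -2.70 and -3.57 on the quantile scale, both called lower.

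Shifting each array to the same median ended further calls in CDS tumors. Of the 6 Ccnd2 probe sets, 3 lost theirs against eMC empty (1.17 to 1.59, adjusted p 0.115 to 0.213) and 4 against eMC CIC-DUX4 (3.54 to 3.93, adjusted p 0.0612 to 0.0868), and none did against ES. Ccne2 lost its call against both (3.41 and 3.42, adjusted p 0.11 and 0.152). The Cdk4 probe set 1422440_PM_at lost its call against eMC empty (-2.42, adjusted p 0.0799), and against ES it was lost with eBayes without a trend (-1.21, 0.0585). Both Cdk6 probe sets lost theirs against eMC CIC-DUX4 (-2.77 and -3.47, adjusted p 0.338 and 0.123), as they did without the 3 arrays of a median log2 signal over 5 (-4.12 and -4.64, adjusted p 0.101 and 0.0532).

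Differences between 2 genes within an array do not move with a constant factor on that array, though quantile normalization can move them, and were compared between groups by exact two-sided permutation tests, adjusted over 20 tests (4 pairs of genes in 5 comparisons). The probe set of the highest mean stood for each gene. The differences say whether 2 genes changed unequally, not which is the more abundant. The smallest exact permutation p possible was 0.0286 for 4 against 4 arrays and 0.00476 for 6 against 4, before adjustment. Fewer arrays make these tests coarser. A call lost without an array thus does not by itself show that the result rests on that array.

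Ccnd2 minus Ccnd1 was 0.13, 0.24, 0.15, 0.18, 0.06 and 0.33 in CDS tumors 1 to 6, against -5.49 to -2.72 (median -3.78) in ES tumors. In eMC CIC-DUX4 it was 0.10, 0.02, 0.16 and 0.14, and in eMC empty 0.28, 0.47, 0.36 and 0.37. The ES tumors alone were far below 0. The mean difference in CDS was 4.12 above that in ES (exact permutation p 0.00216, the smallest that 6 against 6 arrays allow; adjusted 0.0144), and that in ES was 4.31 below that in eMC empty (exact permutation p 0.00476, adjusted 0.0238). In CDS against eMC empty (-0.19, adjusted exact permutation p 0.0357) and eMC CIC-DUX4 against eMC empty (-0.27, adjusted 0.0476) the sign depended on the probe sets, and turned to 0.96 (adjusted 0.0136) and 1.03 (0.0519) with the mean of the tested probe sets of each gene. Without eMC empty 5 these 2 differences were -0.16 (adjusted 0.0794) and -0.23 (0.0571), and 7 of 10 and 6 of 8 arrays, left out in turn, took the adjusted p above 0.05. CDS against eMC CIC-DUX4 gave 0.08 (adjusted 0.272).

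Ccnd2 minus Ccnd3 was 4.72 ± 1.32 in CDS tumors, 1.07 ± 1.41 in ES tumors (SD, n = 6 each) and 2.17 ± 0.05 in eMC CIC-DUX4, against 4.70 ± 2.06 in eMC empty (n = 4 each). CDS was 3.65 above ES (adjusted exact permutation p 0.0144) and 2.55 above eMC CIC-DUX4 (0.0272), with no overlap in either. ES was 3.63 below eMC empty (adjusted exact permutation p 0.0272), and eMC CIC-DUX4 2.53 below eMC empty (0.0476). CDS and eMC empty differed by 0.02 (0.986). Without eMC empty 5, where Ccnd3 was below the dip, the difference of ES was -2.64 (adjusted 0.0649) and that of eMC CIC-DUX4 -1.54 (0.0571). The difference of eMC CIC-DUX4 also missed the threshold without any 1 eMC CIC-DUX4 array (-2.54 to -2.50, adjusted 0.132) or without eMC empty 7 (-3.05, 0.0519). The quantile differences of these 5 comparisons were 3.25, 1.56, -2.19, -0.49 and 1.07 in the order given.

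Ccne1 minus Ccne2 separated the CDS tumors from the ES tumors and the eMC CIC-DUX4 cells. It was -5.53, -2.52, -7.52, -2.85, -6.51 and -7.13 in CDS tumors 1 to 6, against -1.81 to -0.42 (median -1.41) in ES tumors and -0.37, -0.54, -0.74 and -0.82 in eMC CIC-DUX4. In eMC empty it was -0.34, -0.33, -5.10 and -1.84. CDS arrays were below all ES and all eMC CIC-DUX4 arrays and overlapped eMC empty. The difference of means was -4.07 against ES (adjusted exact permutation p 0.0144) and -4.73 against eMC CIC-DUX4 (0.0272), and -3.44 against eMC empty (0.0806). After quantile normalization these were -3.07, -3.84 and -3.60. The call against eMC CIC-DUX4 was lost without CDS 1, 3 or 5 (adjusted exact permutation p 0.0519) or any 1 eMC CIC-DUX4 array (0.0529), with differences from -4.80 to -4.29, and that against eMC empty was gained without CDS 2 (-4.01, 0.0488) or eMC empty 6 (-4.51, 0.0476). The differences of eMC CIC-DUX4 and of ES against eMC empty were 1.29 and 0.62 (adjusted exact permutation p 0.536 and 0.702).

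Cdk4 minus Cdk6 was near 2 in all 4 eMC CIC-DUX4 arrays and higher elsewhere. It ran from 3.46 to 9.20 in CDS tumors (median 6.29) and from 5.68 to 10.84 in ES tumors (median 6.13), and was 2.38, 2.09, 2.29 and 2.33 in eMC CIC-DUX4, against 7.86, 8.26, 4.27 and 3.53 in eMC empty. The eMC CIC-DUX4 arrays overlapped no other group. Their mean was 3.70 below that of eMC empty (adjusted exact permutation p 0.0476), and that of CDS was 4.06 above theirs (0.0423), or -0.54 and 2.89 after quantile normalization. The exact permutation p against eMC empty, before adjustment, was the smallest possible (0.0286), and leaving out arrays in turn gave differences from -4.52 to -2.94. This call was lost without any 1 eMC CIC-DUX4 array (adjusted 0.132), eMC empty 5 (-2.94, 0.0571) or eMC empty 7 (-4.52, 0.0519). That of CDS was lost without CDS 1, 3, 4 or 5 (0.0519) or any 1 eMC CIC-DUX4 array (0.0529). Between CDS and ES the difference was -1.03 (adjusted 0.55), and CDS and ES against eMC empty gave 0.35 and 1.38 (adjusted exact permutation p 0.702 and 0.502).

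**Figure D4:**
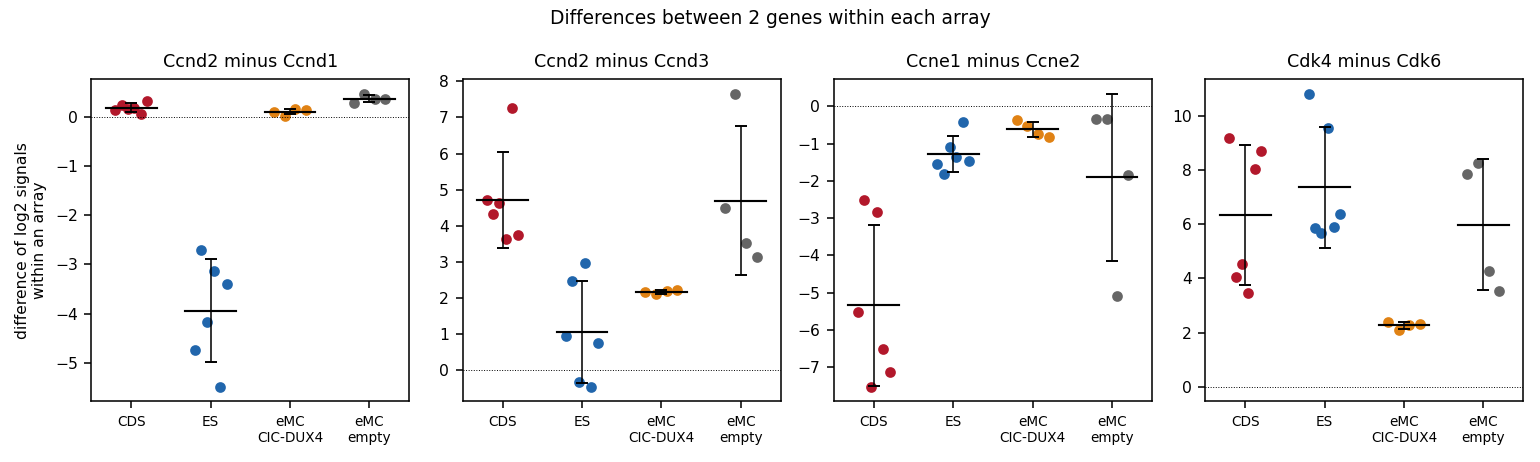
Difference of the log2 signals of 2 genes within each array (vertical axis), by group, with mean and SD (bars), for 4 pairs of genes. ES alone lies far below 0 for Ccnd2 minus Ccnd1, CDS lies lowest for Ccne1 minus Ccne2, and the 4 eMC CIC-DUX4 arrays lie lowest for Cdk4 minus Cdk6.

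Genes that act on these cyclins and kinases were read from 5 lists, with 1 probe set a gene, that of the highest mean. They were chosen with earlier results known, and their counts are a description. Of the 7 CDK inhibitors, 2 were called higher and 0 lower in CDS against ES, 3 and 0 in CDS against eMC empty, 2 and 1 in CDS against eMC CIC-DUX4, 2 and 1 in ES against eMC empty, and 1 and 0 in eMC CIC-DUX4 against eMC empty. After quantile normalization the counts were 4 and 0, 3 and 1, 2 and 1, 2 and 4, and 1 and 0 in the same order. The shares given with the member counts are over all tested probe sets. They are not a matched background for these lists, since no share was computed with 1 probe set a gene. Cdkn1c, the inhibitor p57, averaged 14.73 ± 0.61 in CDS tumors and 5.10 ± 2.57 in ES tumors (SD, n = 6 each), a log2 fold change of 9.64 ± 0.85 (adjusted p 1.31e-07; quantile 9.04). It was 12.83 ± 0.13 in eMC CIC-DUX4, against 12.80 ± 0.21 in eMC empty (n = 4 each), and fell by 7.71 in ES tumors against eMC empty, with 2 of 6 ES arrays above the dip. As for Ccnd2, the CDS mean was the highest and the ES mean the lowest. Cdkn1a (p21) rose by 1.59 ± 0.45 in CDS tumors against ES (adjusted p 0.0169). Cdkn2a, which encodes p16 and p19Arf, was 8.54 ± 1.73 in CDS tumors against 2.89 ± 0.34 in eMC empty, where all 4 arrays were below the dip. Set against the dip, CDS tumors had a Cdkn2a signal at least 3.28-fold higher than eMC empty (adjusted p 0.000844), and ES tumors one at least 3.35-fold higher (adjusted p 0.0101). Cdkn1b (p27) rose by 3.71 in CDS tumors, 3.43 in ES tumors and 3.01 in eMC CIC-DUX4 against eMC empty. After quantile normalization these were 2.15, 1.75 and 1.31, also called. Cdkn2b (p15) fell by 3.02 ± 0.97 in CDS tumors against eMC CIC-DUX4 (adjusted p 0.0411).

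Among the 13 genes of the Rb and E2F families, 0 were higher and 3 lower in CDS against ES, with a median of -0.93 beside 0.21 for all probe sets, and 1 and 3 after quantile normalization. E2f5 (-4.09 ± 0.81, adjusted p 0.00152) and Tfdp2, a partner of the E2F factors (-3.71 ± 0.71, adjusted p 0.00111), fell most. In ES against eMC empty 8 were higher and 0 lower, with a median of 2.57 beside 0.41, and on the quantile scale 3 were higher, with a median of 0.10 beside -0.02. E2f3, an activating E2F, rose by 5.27 ± 0.74 in ES tumors (adjusted p 0.000133; quantile 2.88) and by 4.10 ± 1.04 in CDS tumors (adjusted p 0.00896; quantile 2.17) against eMC empty. Rb1, the main substrate of the D cyclin kinases, fell by 4.13 ± 1.05 in CDS tumors against eMC CIC-DUX4 (adjusted p 0.0147; quantile -3.91). The 10 higher and 1 lower in eMC CIC-DUX4 against eMC empty compare with 2 and 0 after quantile normalization.

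Of the 14 tested genes that activate or turn over these kinases and cyclins, 0 were higher and 1 lower in CDS against ES, Uhrf1 (-1.37 ± 0.38, adjusted p 0.0166), and 1 and 1 after quantile normalization. Skp2, which targets p27 for degradation, rose by 2.43 ± 0.53 in CDS tumors against eMC empty (adjusted p 0.00283; quantile 1.73) and by 1.17 ± 0.31 against eMC CIC-DUX4 (adjusted p 0.0169). Ccnh, the cyclin of the CDK-activating kinase, fell by 1.30 ± 0.31 in CDS tumors against eMC empty (adjusted p 0.0053; quantile -0.88, not called). Fbxw7, which targets cyclin E, was at least 4.13-fold higher in ES tumors than in eMC empty (adjusted p 5.34e-05; quantile log2 fold change 1.05), where all 4 arrays were below the dip. Fbxo4, reported to target cyclin D1, fell in CDS tumors against eMC CIC-DUX4 (-4.26 ± 1.03, adjusted p 0.011), with 2 of 6 CDS arrays above the dip. In ES tumors, all 6 below it and set to it, Fbxo4 was 1.60-fold lower than in eMC empty (adjusted p 0.0108). As 1 of 4 eMC empty arrays was above the dip, this is not a firm minimum fold.

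The number of S phase and mitosis genes called in CDS tumors depended on the scale. Of 20 tested, 0 were higher and 2 lower in CDS against ES, the mitotic kinases Aurka (-2.70 ± 0.68, adjusted p 0.00923) and Bub1 (-2.12 ± 0.56, adjusted p 0.0127), with a median of -0.55 beside 0.21 for all probe sets, and 0 and 4 after quantile normalization. Against eMC empty, limma called 0 of the 20 in CDS tumors (6 at an unadjusted p under 0.05), with a median of -0.18 beside 0.89, and 0 higher and 4 lower after quantile normalization. In ES against eMC empty 7 were higher and 0 lower, and 2 higher after quantile normalization. Against eMC CIC-DUX4, 1 was higher and 0 lower in CDS tumors as deposited, and 5 and 4 after quantile normalization. The 1 was Mki67, a marker of cycling cells (1.07 ± 0.33, adjusted p 0.0338; quantile 0.80, not called).

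Of 14 tested inducers of the D cyclins, 6 were higher and 1 lower in CDS against ES, with a median of 1.80 beside 0.21, and 8 and 2 after quantile normalization. Etv4 (9.18 ± 0.75, adjusted p 4.8e-08) and Etv1 (5.68 ± 0.44, adjusted p 2.11e-08), both ETS factors of the PEA3 group and among the marker genes of CDS tumors, led the list. Myc was called lower (-1.05 ± 0.30, adjusted p 0.0195; quantile -1.02). Against eMC empty 6 were higher and 1 lower in CDS tumors, and against eMC CIC-DUX4 7 and 0. In eMC CIC-DUX4 against eMC empty, where no Ccnd1 probe set was called, Etv5 (5.32 ± 0.65; quantile 2.87) and Etv1 (at least 4.07-fold higher; quantile log2 fold change 2.00) rose on both scales, with 1 and 0 of the 4 eMC empty arrays above the dip. Mycn averaged 7.25 ± 0.97 in eMC CIC-DUX4, against 14.31 ± 0.35 in eMC empty (SD, n = 4 each), a fall of 7.06 ± 0.45 (adjusted p 1.58e-05; quantile -8.47), and it fell by 2.01 in CDS tumors and by 1.91 in ES tumors against eMC empty.

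**Figure D5:**
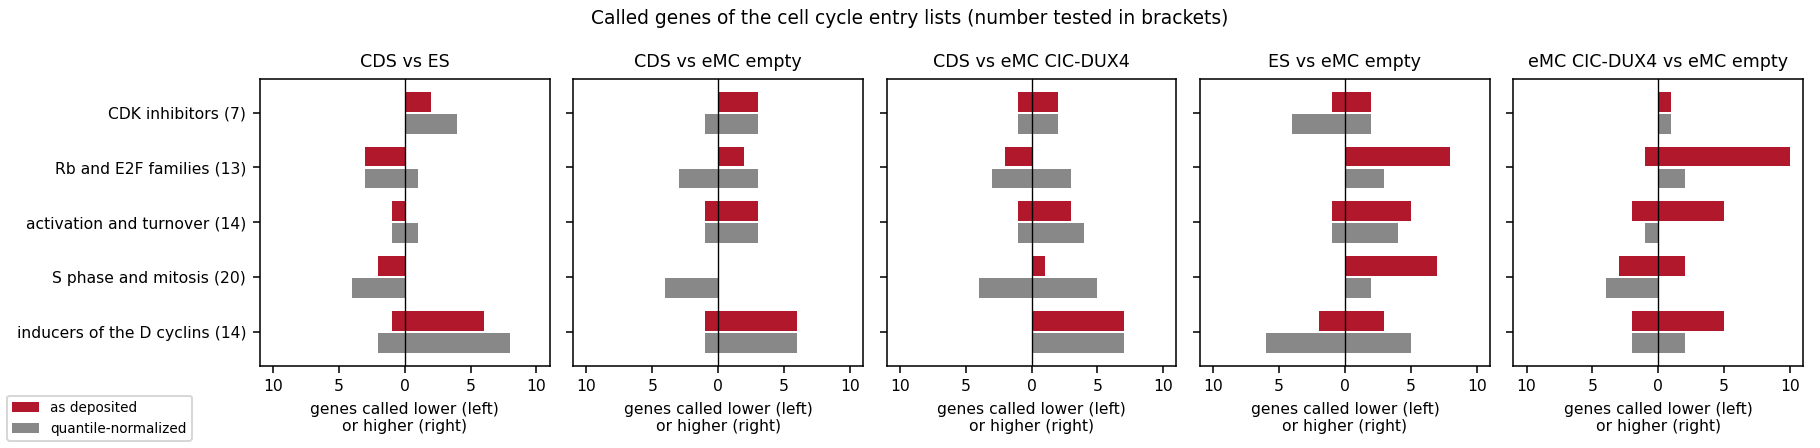
Number of genes called lower (left of 0) or higher (right of 0) in each of 5 lists (rows, number tested in brackets) in 5 comparisons (panels), red as deposited and grey after quantile normalization. In CDS against ES the inducers of the D cyclins have 6 genes higher and the genes of S phase and mitosis have 0.

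The genes whose pattern was most like that of each member were sought among 18946 tested probe sets of other genes by Pearson correlation over the 20 arrays on quantile-normalized log2 signals. The arrays share their groups and scaling, and the values are a description. Ccnd2 was followed most closely by Cavin2, which encodes a protein of caveolae (r = 0.991), Arsj (0.986) and Col4a5, a basement membrane collagen (0.984), all with their lowest mean in ES tumors. Ccnd1 was followed by Pitpnc1 (0.978), Cables1 (0.977) and Cracr2b (0.977), all highest in CDS tumors. Nearest to Ccnd3 were Ccdc102a (0.980), B3glct (0.978) and Pear1 (0.972). For Ccne1 they were Nop16 (0.958), Eef1e1 (0.955) and Nhp2 (0.944), of which Nop16 and Nhp2 encode nucleolar proteins, highest in ES tumors. Ccne2 had Tial1 (0.971), Tgfbr1 (0.971) and Ccdc12 (0.969), and Cdk2 had Ccdc115 (0.934), Thrap3 (0.933) and another probe set of Tial1 (0.926). Cdk4 had Ddx41 (0.935), Dhx29 (0.929) and Atf6b (0.923). Cdk6 was followed by Aoc3 (0.969), Ifi202b (0.965) and Tdrd7 (0.963), all highest in the eMC groups.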

How the data were processed

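The authors deposited log2 signals of Affymetrix mouse arrays of perfect-match probes, 1 array for each of 20 samples, labelled from 100 ng of total RNA. MAS5 is named per the submitters' processing notes, with no version or settings. The deposited log2 signals, returned to the linear scale, had 2% trimmed means of 500.1 to 500.3 on every array. To damp dim values, 1.42, a share of 0.25 of the typical array median, was added before log2 was taken again. No 2 arrays held identical values (0 pairs). Probe sets above their array's median in at least 4 of 20 arrays were kept (26897 of 45037 after 104 controls were left out). Of the 45037, 28898 had 1 gene symbol, 551 several and 15588 none in the platform annotation. All 20 member probe sets matched RefSeq by Entrez number.

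Each comparison was fitted on its 2 groups by limma 3.58.1, using lmFit and a trended two-sided eBayes, under R 4.3.3 (data.table at 1.17.8), with Benjamini-Hochberg adjustment over all kept probe sets. The thresholds of a call were 0.05 on the adjusted p and 1 on the size of the log2 fold change. Quantile normalization was run over all 20 arrays. The dip was found on a density of bandwidth 0.35, with at least 5% of probe sets below it. Where every array of the dimmer group lay below its dip, the fold is a bound for the deposited signals only. It is not a firm minimum where arrays of the brighter group also lay below theirs. Only the limma fit was tested on simulated data, with normal noise and without the unequal array distributions seen here. Few arrays per group limit the precision.

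Replicate numbers shared by eMC or CDS groups were checked for pairing: deviations of same-numbered arrays from their group means correlated between -0.02 and 0.04. Values this small on few shared numbers do not show pairing and cannot exclude a shared culture or preparation. The labels do not say what a shared number marks, and the main fits were unpaired. Alternatives were other offsets, filters, scalings, spread models, gene summaries and call rules, the replicate number as a block, and arrays left out.

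Members, gene lists and markers were chosen with earlier results of these data known. Named genes are all members, from each list the 2 called genes of the largest change in each direction, and the 3 genes most like each member, without predicted or clone-derived names. Of those named from the lists, some are given in 1 comparison only.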

Additional observations from a re-analysis of the deposited data

Results flagged for a closer look

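In 5 of 80 groups of 4 or 6 arrays, 1 array's gap to its nearest neighbour exceeded Dixon's 95% critical value, where chance gives about 1 in 20 groups. For the Ccnd2 probe set 1448229_PM_s_at, CDS tumor 5 read 15.73 and the other CDS tumors 13.98 to 14.52. CDS tumor 5 also had the smallest share of probe sets above the dip of the CDS tumors, 11.7%. For the Ccnd2 probe set 1416124_PM_at, eMC empty 7 read 8.58, above its dip, and the other eMC empty arrays 4.73 to 4.89, below theirs. eMC empty 7 had the largest share of probe sets above the dip in its group, 27.0%. The Ccnd3 probe set 1438805_PM_at, which was not tested, read 6.06 in eMC CIC-DUX4 6, the array without a dip, and 1.47 to 1.62 in the other 3. Cdk2 read 10.28 in eMC CIC-DUX4 7 and 9.81 to 9.86 in the other 3. The Cdk4 probe set 1422439_PM_a_at read 13.45 in ES tumor 41 and 12.47 to 12.74 in the other ES tumors.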

How the results depend on the processing

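The number of arrays and the unequal distributions limit these values. The counts of member probe sets called, as deposited 12 in CDS against ES, 12 in CDS against eMC empty, 12 in CDS against eMC CIC-DUX4, 10 in ES against eMC empty and 8 in eMC CIC-DUX4 against eMC empty, stayed within 1.5 times under the offsets, filters, spread models, the single fit and the call rule without a minimum fold, though single members gained or lost a call. Quantile normalization moved only the last, to 2. Median scaling left 0 by limma in eMC CIC-DUX4 against eMC empty (0 at an unadjusted p under 0.05 too), 5 in CDS against eMC empty and 4 in CDS against eMC CIC-DUX4. Without the 3 arrays of a median log2 signal over 5, eMC CIC-DUX4 against eMC empty had 3. With 1 row per gene of 8 genes, the counts were 4 and 4 in CDS against ES, CDS against eMC empty and CDS against eMC CIC-DUX4, 4 and 5 in ES against eMC empty and 3 and 3 in eMC CIC-DUX4 against eMC empty (brightest probe set and mean), which the smaller number of rows brings. Leaving out each array gave 12 to 12, 11 to 13, 11 to 13, 9 to 11 and 5 to 10 in the order of the first sentence on counts; the 5 came without eMC CIC-DUX4 6 or eMC empty 5.

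Among fold changes called on either scale, quantile normalization turned the sign of 4. In eMC CIC-DUX4 against eMC empty these were Ccnd2 1416124_PM_at (-0.90), Ccne1 (-1.13) and Ccne2 (-1.37), and in CDS against eMC empty Ccne1 (-1.13). Fold changes called on neither scale turned as well. Examples in eMC CIC-DUX4 against eMC empty are Ccnd1 1417420_PM_at (-0.63 to 0.22) and Cdk2 (1.24 to -0.61). Quantile normalization also brought past the threshold the within-array differences Ccnd2 minus Ccnd3 (1.07), Ccne1 minus Ccne2 (-3.60) and Cdk4 minus Cdk6 (2.35) in CDS against eMC empty, and Cdk4 minus Cdk6 in ES against eMC empty (4.05) and CDS against ES (-1.71). With the mean of the probe sets, Ccnd2 minus Ccnd1 turned to 0.96 in CDS tumors and to 1.03 in eMC CIC-DUX4, both against eMC empty, and Ccnd2 minus Ccnd3 (-0.89) and Cdk4 minus Cdk6 (-3.90) missed the threshold. Without the 3 bright arrays, where 2 arrays remain in eMC CIC-DUX4 and exact tests cannot pass, eMC CIC-DUX4 against eMC empty gave Ccnd2 minus Ccnd1 -0.22, Ccnd2 minus Ccnd3 -2.50 and Cdk4 minus Cdk6 -3.67. CDS against eMC CIC-DUX4 then gave Ccnd2 minus Ccnd3 2.60, Ccne1 minus Ccne2 -5.13 and Cdk4 minus Cdk6 4.48. CDS against eMC empty, which lost only CDS 2 and could pass, gave Ccnd2 minus Ccnd1 -0.20 and missed the threshold (adjusted exact permutation p 0.0794). With CDS 2 alone left out that call held, and these 2 fits differ only in the other tests of the adjustment. Apart from these constructions the cause was not tested.

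With the replicate number as a block, member counts were 7 in eMC CIC-DUX4 against eMC empty, 11 in CDS against eMC empty and 13 in CDS against eMC CIC-DUX4. In the last, only numbers 5 and 6 occur in both groups, and the block estimate rests on them. Ccne1 gained a call there (-3.78), against -2.16 unpaired (adjusted limma p 0.156). The labels do not state this pairing, so that call is not firm. Under the block Cdk2 lost its call in CDS against eMC empty (2.66, adjusted limma p 0.0507) and Cdk6 1455287_PM_at its call in eMC CIC-DUX4 against eMC empty (1.85, 0.0733). The paired differences of 3 shared numbers in eMC CIC-DUX4 against eMC empty were -0.31 (Ccnd2 minus Ccnd1), -2.61 (Ccnd2 minus Ccnd3) and -3.10 (Cdk4 minus Cdk6), with a smallest possible p above the threshold. Between CDS and eMC empty each shared number correlated best with its own number (r 0.02 to 0.04), a hint from the data only; ES shares no number with another group, and no paired fit was made for its comparisons.

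Leaving out each array, the within-array differences that missed or gained the threshold in some fits ranged, for Ccnd2 minus Ccnd1, from -0.22 to -0.16 in CDS and from -0.29 to -0.23 in eMC CIC-DUX4, both against eMC empty. Ccnd2 minus Ccnd3 ranged from -4.15 to -2.64 in ES and from -3.05 to -1.54 in eMC CIC-DUX4, both against eMC empty. Ccne1 minus Ccne2 ranged from -4.51 to -2.92 in CDS against eMC empty and from -5.29 to -4.29 in CDS against eMC CIC-DUX4. Cdk4 minus Cdk6 ranged from 3.49 to 4.64 in CDS against eMC CIC-DUX4 and from -4.52 to -2.94 in eMC CIC-DUX4 against eMC empty.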
